A study of Homo sapiens with 14 samples.

Results

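Retained-intron transcripts are annotated isoforms that keep intron sequence which the protein-coding isoforms of the same gene remove. Members were the rows of the 4 deposited reactivity profiles whose identifier carries the transcript type retained_intron in GENCODE release 44 and whose length equals the length given there. Of 20512 transcripts in the profiles, 15325 matched the annotated length, and 2766 of those (18.0%) were members, from 1337 genes. A further 301 retained-intron transcripts differed in length from the annotation and were not used.

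The RNA came from K562, an established human chronic myelogenous leukemia cell line, and all values therefore describe 1 line. In icSHAPE, NAI-N3 (100 mM, 5 min) acylates the 2′-OH of flexible nucleotides. In icLASER, NAz-N3 (from a 1 M stock, 10 min of UV light) is photoactivated and marks the C8 position of purines that solvent can reach. Cells were modified intact (in vivo), or their RNA was isolated, refolded and then modified (in vitro), and poly(A) RNA carrying the azide was enriched through biotin. Of the 14 libraries, icSHAPE had 3 from intact cells, 2 from refolded RNA and 3 with DMSO alone, and icLASER had 2 from intact cells, 2 from refolded RNA and 2 kept from UV light. The authors pooled them into 1 profile per reagent and condition, so no difference below has a replicate check and no test between conditions was possible. In vivo and in vitro profiles of a reagent share their controls, whereas the 2 reagents do not. Of 10 genes that mark K562 cells, 9 were listed in all 4 profiles (TAL1 was not), and of 14 markers of other cell types only EPCAM and LYZ were listed.

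A score runs from 0 to 1 per nucleotide and is scaled within each transcript by the pipeline, with no score in the first 6 and the last 30 nt. RPKM is the level of a transcript per kilobase, scaled to the library's mapped reads. No counts of reads come with the scores, and depth was not analysed here. Each nucleotide of a member was called exonic when an exon of any protein-coding isoform of the gene holds it, and intronic when it lies in no such exon but inside an intron of at least 1 of them.

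Introns begin with a donor site, usually GT, and end with a pyrimidine-rich tract and the acceptor dinucleotide AG. U1 small nuclear RNA pairs with the donor site, and U2AF binds the tract and the AG before splicing. Transcripts that keep an intron are often held in the nucleus or degraded. Many introns of ribosomal protein and translation genes also carry small nucleolar RNAs (snoRNAs), guide RNAs that the cell trims out of the removed intron. C/D box snoRNAs direct 2′-O-methylation and H/ACA box snoRNAs direct pseudouridylation, each bound by its own set of core proteins.

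The splice sites of 4 members that recur below, and of SRSF3-205, from the gene of an SR protein that regulates splicing, show what the intronic parts look like. Each donor line gives the last 10 exon nucleotides in lower case and the first 20 intron nucleotides in capitals, and each acceptor line gives the last 20 intron nucleotides in capitals and the next 10 exon nucleotides in lower case. Sequences were read from GENCODE on GRCh38, 5′ to 3′ on the transcript strand.
RPS18-232 donor: atacagccagGTGTGTACTGAAATGAGGGC
RPS18-232 acceptor: GCCCCCTCCTCTGAATCCAGgtcctagcca
RPS2-215 donor: caggttcaagGTACCCGGCTGTCCTGGAGG
RPS2-215 acceptor: TCACACACATCTTTTCGCAGgcatttgttg
RBMX-210 donor: atagtggaagGTGAGTTGTCTGGCAGTACA
RBMX-210 acceptor: TTCTGAAAACTACTTTTTAGtactcttgat
HSPA8-215 donor: aatgacaaggGTAAGGAGGCACTGTCATCT
HSPA8-215 acceptor: AGAGTTAATTTCTTTCCTAGgccgtttgag
SRSF3-205 donor: ggtctcgtagGTAAGATCTTTGATAACTTG
SRSF3-205 acceptor: TTTTTTTTTTTTTTTTTTAGtcgatctagg

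All 5 introns start with GT, end with AG and lie between coding exons. RPS18-232 keeps intron 4 of 5 of isoform RPS18-230 (chr6:33276067-33276175, plus strand, 109 nt). RPS2-215 keeps intron 4 of 6 of RPS2-201 (chr16:1962910-1963148, minus strand, 239 nt), which holds the H/ACA box snoRNA SNORA64. RBMX-210 keeps intron 2 of 8 of RBMX-201 (chrX:136879124-136879318, minus strand, 195 nt), which holds the C/D box snoRNA SNORD61. The HSPA8-215 intron is number 6 of 7 in HSPA8-221 (chr11:123058485-123058631, minus strand, 147 nt), and the SRSF3-205 intron is number 5 of 5 in SRSF3-208 (chr6:36601795-36601961, plus strand, 167 nt). SRSF3-205 keeps another intron as well. Its whole intronic part had mean scores of 0.123 in icSHAPE in vitro, 0.127 in icSHAPE in vivo, 0.119 in icLASER in vitro and 0.121 in icLASER in vivo. Neither difference of the whole part reached the threshold used below. The intron shown alone had 0.171, 0.173, 0.105 and 0.217 in the same order, so its icLASER rise was beyond that threshold. The other intron had 0.106, 0.0577, 0.0442 and 0.0895.

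Box C, searched as TGATGA on the transcript strand, is the element by which C/D box snoRNAs are recognised by their core proteins. These exact letters were present in 18 of the 51 small RNA genes described below, and other forms of the box were not searched for. SNORD18B and an unnamed snoRNA gene that overlaps it in RPL4, both among the 18, share the same match. The place of the match is shown here, in capitals, for SNORD61, whose host intron is shown above. It is also shown for SNORD83B and SNORD96A, which had the lowest icSHAPE differences of the 18.
SNORD61 (in RBMX): gctaTGATGAatttgattgcattgat
SNORD83B (in RPL3): tcagTGATGAggcctggaatgtgcgc
SNORD96A (in RACK1): ctggTGATGAcagatggcattgtcag
These lie at chrX:136879199-136879271 (minus), chr22:39313819-39313911 (minus) and chr5:181241814-181241892 (minus), all within introns of their hosts. A match to these letters is a description of the sequence and not of protein binding.

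Members had a median length of 727 nt (174 to 8636), against 922 nt for protein-coding transcripts in the profiles. Of their nucleotides, 1876678 (64.0%) were exonic and 1031551 (35.2%) intronic, and 71.4% of the exonic ones were coding. A member held a median of 225 intronic nt (quartiles 106 and 405, maximum 6193), 44 members held none, and 31 had no protein-coding isoform. Of the intronic nucleotides 41.3% lay in introns held whole, 35.2% at the 5′ end and 21.3% at the 3′ end of the transcript, so many members start or end inside an intron. EIF4A1, an RNA helicase of translation initiation, had the most members of any gene (17), and 672 genes had more than 1. Members of a gene share exons and reads and are not independent of each other.

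Introns held whole were short. The 1016 introns that no protein-coding isoform keeps had a median length of 194 nt (quartiles 102 and 387), against 721 nt (229 and 2090) for the 6753 other introns of those genes. Their median GC content was 54.9% against 50.7%. GT and AG ended 98.3% of them and 97.9% of the others, and the median pyrimidine share of the tract before the AG was 77.8% in both. Length and GC content thus differed in their medians, while splice-site dinucleotides and tract composition were alike.

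The profiles listed 1512 members in icSHAPE in vitro, 2109 in icSHAPE in vivo, 2110 in icLASER in vitro and 2142 in icLASER in vivo, and 1283 in all 4. Their median RPKM was 14.5, 11.2, 11.3 and 11.4 in that order, close to the protein-coding medians of 14.7, 11.9, 11.7 and 11.5. Every listed row had an RPKM above 5, so less abundant members could not be seen. Set beside the protein-coding isoform of highest RPKM of the same gene, the median ratio was 0.507, 0.519, 0.543 and 0.509, and members lay below that isoform in 94.1%, 94.3%, 91.0% and 88.9% of cases. How reads of shared exons were divided among isoforms is not stated, and the ratio holds shared reads.

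Ribosomal protein genes gave the most abundant members. RPS12-202, from a gene for a small-subunit protein, had RPKM of 1887 in icSHAPE in vitro, 2293 in icSHAPE in vivo, 1218 in icLASER in vitro and 1991 in icLASER in vivo. RPS18-232 had 691, 746, 501 and 837, and RPL13-207, from a large-subunit protein gene, had 394, 401, 300.4 and 480.0. All of the 10 members of highest mean RPKM under the naming rule (1 per gene) came from ribosomal protein genes, and others among them were from RPS23, RPS29, RPLP1, RPS27, RPL32 and RPL13A.

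Levels moved little between conditions. The median log2 ratio of in vivo over in vitro RPKM was 0.15 for icSHAPE and 0.11 for icLASER, against 0.14 and 0.11 for protein-coding transcripts. In icSHAPE 2 of 1451 members were at least 2-fold higher in vivo and 19 at least 2-fold lower, while over all 11713 transcripts 0.299% were higher and 2.64% lower. In icLASER 9 of 1766 were higher and 28 lower, while over all 13809 transcripts 1.21% were higher and 2.39% lower. In each case the members' share was below that background.

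Intronic parts had lower scores than the exonic parts of the same transcript in all 4 profiles. The median intronic mean was 0.0543 in icSHAPE in vitro, 0.0774 in icSHAPE in vivo, 0.0779 in icLASER in vitro and 0.0604 in icLASER in vivo. The exonic medians were 0.155, 0.180, 0.166 and 0.187. Per member, the median of intronic minus exonic was -0.103 (n = 1256), -0.0990 (n = 1748), -0.0882 (n = 1811) and -0.127 (n = 1851), and the intronic part was the higher in 18.2%, 9.27%, 18.6% and 6.16% of members. The order icSHAPE in vivo above in vitro and icLASER in vivo below in vitro held for the intronic medians, while the exonic medians were higher in vivo with both reagents.

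Most intronic scores were exactly 0. Exactly 0 or 1 was recorded for 93.8%, 89.3%, 88.3% and 91.9% of intronic nucleotides against 59.3%, 43.5%, 48.3% and 48.7% of exonic ones. Exactly 0 alone was recorded for 88.5%, 84.4%, 83.3% and 88.3% of intronic nucleotides against 54.4%, 38.3%, 43.2% and 42.9% of exonic ones. Between conditions, 13.1% of intronic nucleotides were higher in vivo and 8.65% lower with icSHAPE, and 9.42% and 13.7% with icLASER. The intronic means and differences therefore rest on a minority of positions. The gap between the parts was smaller in abundant members. In icLASER in vitro the median intronic minus exonic value was -0.105 in members under 10 RPKM (n = 748) and 0.0252 in members of at least 100 RPKM (n = 160), whose medians were 0.145 intronic and 0.123 exonic. In icLASER in vivo the same groups had -0.132 and -0.0935, and in icSHAPE the groups ran from -0.109 to -0.0678 in vitro and from -0.116 to -0.0360 in vivo. The part of read coverage in these differences was not tested.

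**Figure D1:**
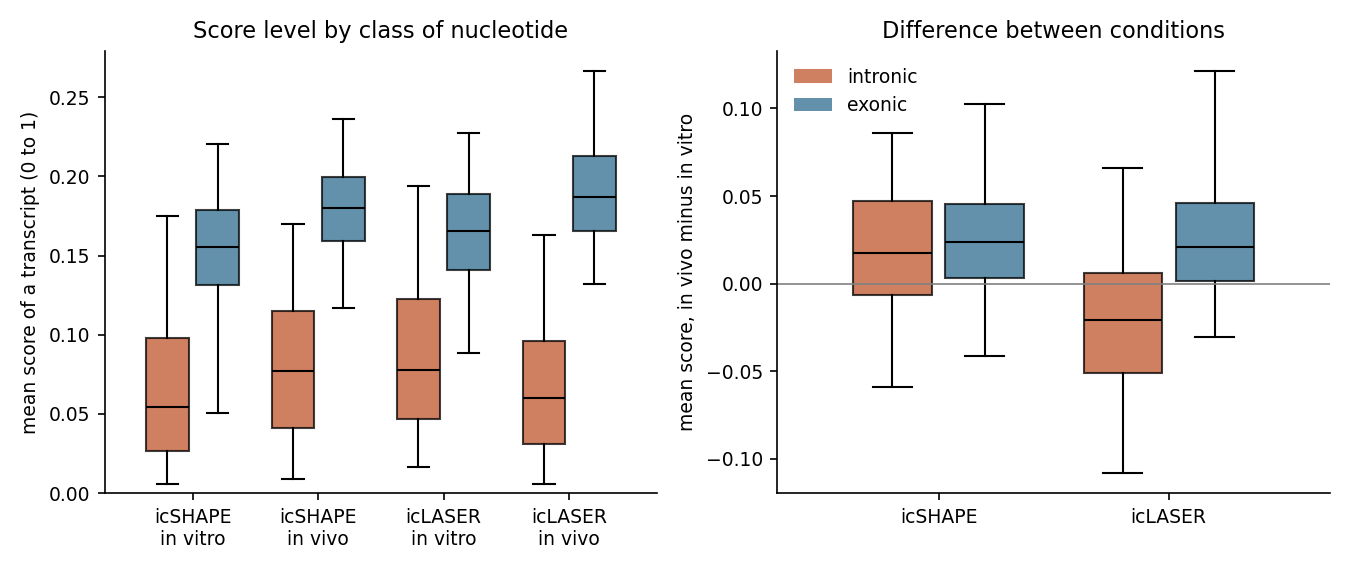
Mean score (0 to 1) of the intronic and of the exonic nucleotides of each retained-intron transcript in the 4 profiles, and the in vivo minus in vitro difference for each reagent. Boxes give the median and quartiles over members and whiskers the 5th and 95th percentiles. Intronic boxes lie below exonic boxes in every profile, and the icLASER difference is the one whose intronic median (-0.0206) is below 0.

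Between conditions, the exonic parts behaved alike with both reagents and the intronic parts did not. With icSHAPE the median in vivo minus in vitro difference was 0.0174 in intronic parts (n = 1195) and 0.0237 in exonic parts (n = 1425). With icLASER it was -0.0206 in intronic parts (n = 1516) and 0.0207 in exonic parts (n = 1741). Within members, the intronic difference minus the exonic difference had a median of -0.00434 with icSHAPE (564 above and 631 below 0) and of -0.0452 with icLASER (375 above and 1141 below 0). In 917 of 1516 members the icLASER difference was below 0 in the intronic part and above 0 in the exonic part, and 209 showed the reverse. Scores are scaled within each transcript, so the intronic and exonic parts of a member are not independent. For whole members the median icLASER difference was 0.00862. In members that hold all or part of a small RNA gene, the icLASER medians were -0.0784 in intronic and 0.0996 in exonic parts. In the other members they were -0.0192 and 0.0208. The part of the scaling in these opposite signs was not tested.

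A mean difference of at least 0.05 was called. In icSHAPE 268 intronic parts were called higher in vivo and 77 lower, and in icLASER 108 were called higher and 399 lower. For whole transcripts, 9.6% of all transcripts were called higher and 0.138% lower with icSHAPE, and 2% higher and 0.932% lower with icLASER. Whole members were called higher in 130 of 1451 cases (8.96%) and lower in 0 with icSHAPE, and higher in 45 of 1766 (2.55%) and lower in 5 with icLASER, so as whole transcripts they were near the background. Intronic parts are shorter than whole transcripts, and their shares (22.4% higher and 6.44% lower with icSHAPE, 7.12% and 26.3% with icLASER) are not directly comparable with it.

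The icSHAPE differences depended on the scale. Protein-coding transcripts had a median difference of 0.0252, and after subtraction of the mean score of each 5-nt sequence in protein-coding transcripts the icSHAPE medians became -0.00965 in intronic and -0.00139 in exonic parts. After division by the protein-coding mean the exonic icSHAPE median was -0.0176. The icLASER intronic median stayed below 0 in the alternatives run, apart from the median over nucleotides, which was 0. By base, the icLASER intronic mean difference was -0.0296 at A, -0.00390 at C, -0.0569 at G and -0.0173 at U, so the purines that the reagent targets lay lowest.

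Kinds of intronic stretch were similar to each other in direction. With icLASER the median difference was -0.0206 in introns held whole (n = 657), -0.0225 in stretches at the 5′ end (162 above and 393 below 0) and -0.0173 in stretches at the 3′ end (n = 399). With icSHAPE it was 0.0245, 0.0168 and 0.00865. In members of at least 100 RPKM the icLASER intronic median was -0.0532, and 82 of 160 were called lower.

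Of 1048 members with at least 50 scored nucleotides of each kind in all 4 profiles, 519 had an intronic difference above 0 with icSHAPE and below 0 with icLASER, 105 had the reverse, 186 were above 0 with both and 203 below 0 with both. Across these members the differences of the 2 reagents had Pearson r of -0.0950 and Spearman rho of -0.0518, given as a description since members share genes and transcript scaling. Both called 12 members higher and 26 lower, 71 were called higher with icSHAPE and lower with icLASER, and 16 the reverse.

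**Figure D2:**
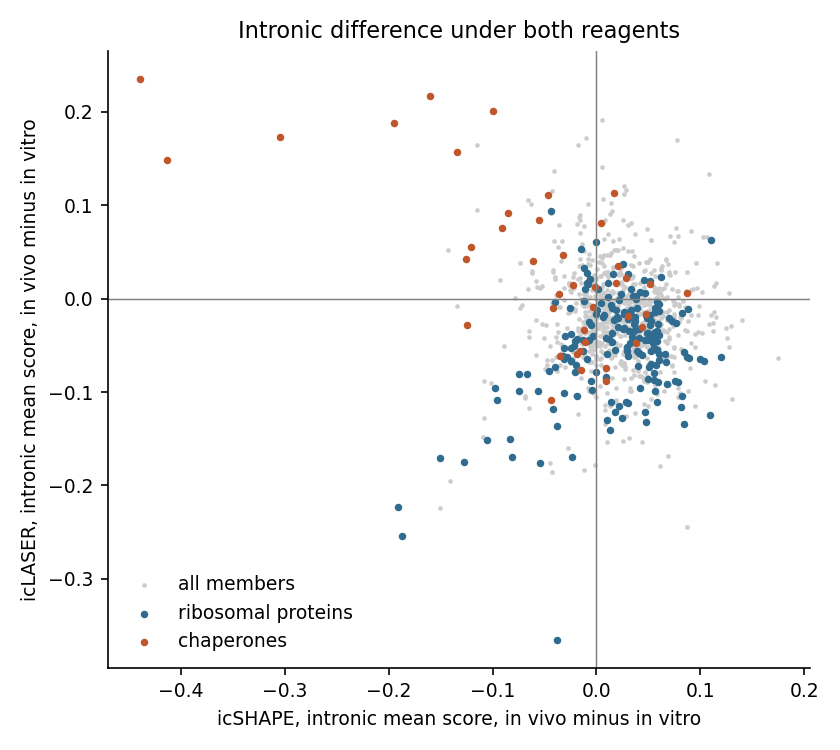
In vivo minus in vitro difference of the intronic mean score with icSHAPE (horizontal axis) and icLASER (vertical axis), 1 point per member (n = 1048), with 189 members of ribosomal protein genes and 41 of chaperone genes in colour. Points are densest at icSHAPE above 0 and icLASER below 0 (519 members), and 11 of the 16 members called lower with icSHAPE and higher with icLASER are chaperone members.

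Over all members with values, intronic parts were called higher in 22.4% and lower in 6.44% with icSHAPE and in 7.12% and 26.3% with icLASER, and the shares of each gene list below are to be read beside these. Ribosomal protein members had icSHAPE shares near them (27.5% higher, 7.41% lower) and more icLASER calls lower (2.07% higher, 46.1% lower). Of 189 with icSHAPE values 52 were called higher in vivo and 14 lower (median 0.0282), and of 193 with icLASER values 4 were called higher and 89 lower (median -0.0448). The median RPKM of the list was 134. Among all members of at least 100 RPKM, which include members of the list, the icLASER shares were 3.75% higher and 51.25% lower. Among members that hold all or part of a small RNA gene, 71.4% were called lower with icLASER. Whether the list differs from other members of like RPKM, or from other members with a small RNA, was not tested. RPS18-232 had an intronic mean of 0.0275 in icSHAPE in vitro, 0.112 in icSHAPE in vivo, 0.185 in icLASER in vitro and 0.127 in icLASER in vivo. RPS23-203, also from a small-subunit protein gene, had 0.0801, 0.189, 0.270 and 0.145. RPL32-207, from a large-subunit protein gene, had 0.0485, 0.124, 0.151 and 0.0632. These 3 were called higher with icSHAPE and lower with icLASER. RPS12-202 had 0.184, 0.169, 0.0632 and 0.116 and so was called higher with icLASER, against the direction of most of the list. RPS27-203 had 0.228, 0.218, 0.158 and 0.186, and neither difference reached the threshold.

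Splicing regulators were called in shares near those over all members, with 29.1% higher and 5.45% lower with icSHAPE and 3.85% and 32.1% with icLASER. Of 55 with icSHAPE values 16 were called higher and 3 lower (median 0.0206), and of 78 with icLASER values 3 were called higher and 25 lower (median -0.0238). SNRPF-202, from the gene of an Sm core protein of the spliceosome, had an intronic mean of 0.0405 in icSHAPE in vitro and 0.126 in vivo, and 0.0716 and 0.0800 with icLASER. HNRNPA2B1-204, from the gene of an RNA-binding protein of nuclear RNA, had 0.1002 and 0.0970 with icSHAPE and 0.151 and 0.0508 with icLASER. SRSF11-214, from an SR protein gene, had 0.0625 and 0.119, then 0.145 and 0.0520. Of these, SNRPF-202 was called with icSHAPE only, HNRNPA2B1-204 with icLASER only and SRSF11-214 with both reagents in opposite directions.

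Translation factors had 10 members called higher (14.7%) and 8 lower (11.8%) of 68 with icSHAPE (median 0.0103), and 7 higher (9.46%) and 27 lower (36.5%) of 74 with icLASER (median -0.0302), beside 22.4%, 6.44%, 7.12% and 26.3% over all members. EIF3H-207, from the gene of a subunit of initiation factor eIF3, had 0.0659 and 0.131 with icSHAPE and 0.147 and 0.0478 with icLASER. EIF3B-208, from the gene of another eIF3 subunit, had 0.0740 and 0.101, then 0.0487 and 0.160. The pair therefore differed in the direction of the icLASER call.

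Glycolysis genes had 4 members called higher and 0 lower of 16 with icSHAPE (25% and 0%, median 0.0312), and 1 higher and 10 lower of 22 with icLASER (4.55% and 45.5%, median -0.0433). Beside these, the shares over all members were 22.4%, 6.44%, 7.12% and 26.3%, and the list is small. ENO1-204, from the enolase gene, had 0.0966 and 0.221 with icSHAPE and 0.0921 and 0.0609 with icLASER. ALDOA-215, from an aldolase gene, had 0.0120 and 0.0834, then 0.156 and 0.0950. GAPDH-208 had 0.0105 and 0.0440, then 0.0980 and 0.0825, and neither reagent reached the threshold.

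Haem, iron and erythroid genes had 4 members called higher and 2 lower of 15 with icSHAPE (26.7% and 13.3%, median 0.0365), and 2 higher and 5 lower of 19 with icLASER (10.5% and 26.3%, median -0.0240). Over all members the shares were 22.4% higher and 6.44% lower with icSHAPE and 7.12% and 26.3% with icLASER. The icLASER share called lower equalled that over all members, and the list is small. FTH1-211, from the ferritin heavy chain gene, had 0.0717 and 0.138 with icSHAPE and 0.0799 and 0.122 with icLASER. HBA1-203 had 0.181 and 0.119, then 0.0485 and 0.0756, and HBA2-203 had 0.174 and 0.101, then 0.0407 and 0.0789. The alpha globin genes HBA1 and HBA2 are near-identical copies, and how reads fell between them is uncertain.

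Proteasome genes had 10 members called higher and 0 lower of 26 with icSHAPE (38.5% and 0%, median 0.0316), and 3 higher and 6 lower of 38 with icLASER (7.89% and 15.8%), with a median of 0.00671 on the other side of 0 from most lists. The shares over all members were 22.4%, 6.44%, 7.12% and 26.3%. PSMD7-202, from the gene of a regulatory-particle subunit, had 0.0168 and 0.112 with icSHAPE and 0.0661 and 0.0286 with icLASER. PSMC4-203, from the gene of an ATPase subunit, had 0.119 and 0.0766, then 0.0693 and 0.185. PSMA1-207, from the gene of a core-particle subunit, had 0.0824 and 0.0929, then 0.210 and 0.0571.

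Chaperone members, from 18 genes, went the other way as a list. Of 42 with icSHAPE values 2 were called higher in vivo and 14 lower (4.76% and 33.3%, median -0.0211), and of 47 with icLASER values 16 were called higher and 8 lower (34.0% and 17.0%, median 0.0150). The shares over all members were 22.4%, 6.44%, 7.12% and 26.3% in that order. Within the list, heat shock protein genes (symbols starting HSP) had icSHAPE calls of 1 higher and 11 lower of 19 (median -0.0910) and icLASER calls of 11 higher and 1 lower of 20 (median 0.0650). Members of the CCT and TCP1 genes, which encode a cytosolic chaperonin, had 1 higher and 3 lower of 23 (median -0.0114) and 5 higher and 6 lower of 24 (median -0.0178). DNAJ members had values with icLASER only, 0 higher and 1 lower of 3 (median -0.0293). Of these groups, the HSP members alone had an icLASER median above 0. Single genes of the chaperonin group were above 0 too: TCP1 (0.111, 1 member), CCT2 (0.0249) and CCT6A (0.0171). CCT3, CCT5, CCT7 and CCT8 were below 0. This split was made after the values were seen.

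HSP90AA1 encodes the inducible cytosolic HSP90, and all 4 of its members were called lower with icSHAPE and higher with icLASER. HSP90AA1-206 had an intronic mean of 0.461 in icSHAPE in vitro, 0.0217 in icSHAPE in vivo, 0.0103 in icLASER in vitro and 0.246 in icLASER in vivo. Its exonic means were 0.0159, 0.199, 0.171 and 0.189, so the icSHAPE in vitro profile was high in the intronic and low in the exonic part. HSP90AA1-207 had intronic means of 0.260, 0.0648, 0.00107 and 0.189, and exonic means of 0.0145, 0.198, 0.217 and 0.228. The RPKM of HSP90AA1-207 was 40.98, 18.1, 83.8 and 39.6, lower in vivo than in vitro with both reagents.

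HSPA8 encodes a constitutively expressed HSP70 protein, and 3 of its 4 members with values were called the same way as HSP90AA1. HSPA8-215 had intronic means of 0.406, 0.102, 0.00969 and 0.182 over its 187 intronic nt, and the intron shown above (147 nt) alone had 0.432, 0.112, 0.00304 and 0.178. Its exonic means were 0.0620, 0.169, 0.166 and 0.185, and its RPKM was 43.8, 45.1, 52.0 and 37.4. HSPE1, which encodes the mitochondrial co-chaperonin HSP10, had both of its members in this group, and HSPE1-206 had intronic means of 0.163, 0.0424, 0.00560 and 0.0604. HSPB1-203, from the gene of the small heat shock protein HSP27, had 0.210, 0.119, 0.0254 and 0.101. Split by the protein-coding isoform of highest RPKM alone, its icSHAPE difference was 0.247 in place of -0.0910.

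In all, 16 members from 9 genes were called lower with icSHAPE and higher with icLASER, and 10 of the 16 came from HSP genes. The other 6 came from CACYBP (2 members), ACTL6A, RBM8A, H3-3B and CCT6A. HSP90B1, the HSP90 of the endoplasmic reticulum, had medians of -0.0217 and 0.00115 over its 4 members, and HSPA9, the mitochondrial HSP70, had 0.0321 and 0.0108 over 2, so the pattern did not extend to every HSP gene. These groups were picked for their values and are a description. With 1 pooled profile a side, whether a library or the condition carries the difference cannot be told apart.

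Outside the lists, POLR2G-204, from the gene of an RNA polymerase II subunit, had the highest icSHAPE difference under the naming rule, with 0.00935 in vitro and 0.184 in vivo, and icLASER values of 0.139 and 0.0749. PRRC2A-209 had 0.0365 and 0.177, then 0.1504 and 0.128. CDC34-206, from the gene of a ubiquitin-conjugating enzyme, had 0.0185 and 0.149, then 0.131 and 0.0229, and CPSF3-205, from the gene of the endonuclease that cleaves pre-mRNA before polyadenylation, had 0.0732 and 0.201, then 0.0883 and 0.0948. With icLASER, CD63-205, from a tetraspanin gene, rose from 0.104 to 0.274 and ACTL6A-204, from the gene of a chromatin-remodelling subunit, from 0.167 to 0.331. ACTL6A-204 rests on 52 scored intronic nucleotides.

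The 4 members of lowest icLASER difference under the naming rule all held a small RNA gene or part of one. RPL4-203 had intronic means of 0.284 in icSHAPE in vitro, 0.246 in icSHAPE in vivo, 0.491 in icLASER in vitro and 0.126 in icLASER in vivo. RPS2-215 had 0.311, 0.124, 0.371 and 0.116. RBMX-210, from the gene of an RNA-binding protein of the spliceosome, had 0.209, 0.0581, 0.272 and 0.0496. PHB2-205, from a prohibitin gene, had 0.273, 0.132, 0.347 and 0.152. Their intronic nucleotides hold SNORD16 (60 of its 99 nt), SNORA64, SNORD61 and SCARNA12 (239 of its 270 nt), the last of these a small Cajal body RNA.

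Small RNA genes lay, in whole or in part and on either strand, in the intronic nucleotides of 92 members and covered 9909 nt. Of those held whole on the same strand, 51 genes in 31 host genes had at least 30 nucleotides scored in all 4 profiles. Each was taken from the member of highest RPKM, and this grouping was made after the values were seen. Over the 51 the median score was 0.378 in icSHAPE in vitro, 0.0853 in icSHAPE in vivo, 0.449 in icLASER in vitro and 0.0824 in icLASER in vivo. The difference had a median of -0.271 with icSHAPE (43 called lower, 4 higher) and of -0.378 with icLASER (48 called lower, 1 higher). These are means over a whole gene, and the fall was uneven along it. At 40 nt before the last nucleotide the mean was 0.496 in vitro and 0.105 in vivo with icSHAPE, and 0.587 and 0.0820 with icLASER. At 24 nt before it the values were 0.109 and 0.122, then 0.204 and 0.0828. At the last nucleotide they were 0.0262 and 0.0589, then 0.109 and 0.0884. In the rest of the intronic nucleotides of the same members the medians were 0.0693 and 0.123 with icSHAPE and 0.0981 and 0.0922 with icLASER (n = 49 small RNAs). The 51 small RNAs came from 39 members, so a member that holds several of them was counted several times.

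In their mean over the whole gene, C/D box snoRNAs were lower in vivo almost without exception. Of 27, 26 were called lower with icSHAPE (median -0.336) and 27 with icLASER (median -0.404). SNORD83B, in RPL3, had 0.568, 0.0744, 0.634 and 0.110 in the order used above. SNORD96A, in RACK1, had 0.584, 0.121, 0.670 and 0.0853. SNORD61, in RBMX, had 0.415, 0.00978, 0.537 and 0.0496, while the other 122 nt of that intron had 0.0854, 0.0870, 0.114 and 0.0496. The exception with icSHAPE was SNORD86 in NOP56, with 0.0459, 0.0570, 0.235 and 0.0992.

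H/ACA box snoRNAs behaved in the same way. Of 15, 14 were called lower with icSHAPE (median -0.262) and 15 with icLASER (median -0.334). SNORA64, in RPS2, had 0.512, 0.0958, 0.525 and 0.106, while the other 105 nt of its intron had 0.0542, 0.159, 0.173 and 0.129. SNORA52, in RPLP2, had 0.335, 0.0728, 0.310 and 0.0476. SNORA56, in DKC1, which encodes the pseudouridine synthase of H/ACA particles, was low in vitro too, with 0.0465, 0.0853, 0.105 and 0.0310.

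The 9 other small RNAs, mostly microRNA genes, had medians of -0.00873 with icSHAPE and -0.0784 with icLASER. MIR6758 in MARS1 had 0.0408, 0.0911, 0.0432 and 0.112, and the U4 copy in PTMA had 0.0401, 0.0907, 0.0646 and 0.0106. MIR1248 in EIF4A2 had 0.597, 0.124, 0.404 and 0.0664, and it overlaps the H/ACA box snoRNA SNORA81, so their values share nucleotides. An unnamed snoRNA gene in RPL4 overlaps SNORD18B in the same way.

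Reads of the small RNA itself and of the retained-intron transcript cannot be told apart at these positions. A row of its own was listed for 18 of the 51 small RNAs in icSHAPE in vitro, 11 in icSHAPE in vivo, 7 in icLASER in vitro and 4 in icLASER in vivo. SNORD54 had an own-row RPKM of 296, 160, 182 and 15.3. Where enough nucleotides could be compared, the median Pearson r across nucleotides between the own row and the host intron was 0.587 (n = 14), 0.828 (n = 7), 0.551 (n = 4) and 0.707 (n = 2). The exonic parts of these members were low in vitro as well, and scores are scaled within a transcript. Taken once per small RNA, the exonic medians were 0.0712 and 0.174 in icSHAPE and 0.0616 and 0.188 in icLASER. The part of these 2 facts in the small RNA differences was not tested.

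The icLASER direction was also present without them. With the members that hold all or part of a small RNA gene left out, 344 of 1439 members were called lower and 105 higher (median -0.0192). Among the members left out, 55 of 77 were called lower and 3 higher (median -0.0784). For icSHAPE the members without a small RNA had 264 called higher and 52 lower of 1119 (median 0.0195), and those with one had 4 higher and 25 lower of 76 (median -0.0293). Introns held whole gave the same order, with icLASER medians of -0.0214 (n = 624) without and -0.118 (n = 39) with a small RNA, and icSHAPE medians of 0.0267 (n = 482) and -0.0544 (n = 36).

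Near splice sites of introns held whole, the conditions differed most at the 3′ end with icSHAPE. In the AG the mean score over 503 introns was 0.294 in refolded RNA and 0.419 in cells (0.125 higher), and in the tract from 17 to 3 nt before the exon it was 0.126 and 0.205. From 40 to 18 nt before the exon, where branch points usually lie, it was 0.0691 and 0.0760. With icLASER the AG had 0.464 and 0.481, the tract 0.127 and 0.143, and the region before it 0.103 and 0.0727. The first 50 exon nucleotides after the AG rose as well, from 0.219 to 0.271 with icSHAPE and from 0.227 to 0.260 with icLASER. In the AG, 28.4% of nucleotides were higher in vivo and 25.2% lower with icLASER. Differences in the tract, the AG and the exon after it were thus above 0 with both reagents and larger with icSHAPE.

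At the donor site, from the last 3 exon to the first 6 intron nucleotides, icLASER had 0.114 in vitro and 0.0729 in vivo, and icSHAPE had 0.0611 and 0.0563. The next 44 intron nucleotides had 0.0952 and 0.0680 with icLASER and 0.0643 and 0.0828 with icSHAPE. At the first intron nucleotide icLASER had 0.187 in vitro and 0.136 in vivo over 636 introns, and the same hexamers elsewhere in protein-coding transcripts (150852 occurrences) had 0.423 and 0.378. The differences at this nucleotide were therefore similar (-0.0510 and -0.0449) while the level at the donor site was lower. At the second intron nucleotide the differences were -0.0214 at the site and -0.00565 elsewhere, and at the third -0.0671 and -0.0401. At the fourth they were -0.0440 and 0.00320, at the fifth -0.0534 and -0.0109, and at the sixth -0.000874 and 0.0100. From the second on, the difference at the site was thus the lower at each.

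Scores of exon nucleotides beside the introns depended on the row they were read from. In the 30 exon nucleotides before the donor site, members had means of 0.0324 in icSHAPE in vitro, 0.0486 in icSHAPE in vivo, 0.0418 in icLASER in vitro and 0.0412 in icLASER in vivo. The same nucleotides in the protein-coding isoform that removes the intron had 0.173, 0.191, 0.174 and 0.176. In the 20 exon nucleotides after the acceptor, members had 0.284, 0.347, 0.290 and 0.347, and the protein-coding isoform had 0.175, 0.189, 0.161 and 0.167. From 31 to 50 nt after the acceptor the rows were close, with 0.158, 0.189, 0.166 and 0.199 in members and 0.166, 0.176, 0.161 and 0.167 in the protein-coding isoform. The dip before and the rise after an intron were therefore present in the members' rows and not in the spliced rows of the same nucleotides. For the tract, the AG and the other intron positions no spliced row exists to set beside them, and the part of the row in their levels was not tested. Over all shared exon nucleotides the median r between a member and the protein-coding isoform of highest RPKM was 0.599, 0.701, 0.689 and 0.648.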

How the data were processed

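The authors trimmed reads with Trimmomatic, aligned them with Bowtie2 (tools named in the submitters' processing notes, versions not given in the sources used here) to the Ensembl release 88 GRCh38 transcriptome, and ran the icSHAPE pipeline with its final filter on hit coverage and background density removed. They pooled replicates and deposited, per reagent and condition, a transcript's RPKM and a score per nucleotide (enrichment over control). No counts of reads come with these values, depth was not analysed here, and strand handling is not given in the sources used here. Here, identifiers were matched to GENCODE release 44 (GRCh38) by equal length. Class means needed at least 50 scored nucleotides, and a call was a mean difference of at least 0.05 (2-fold for RPKM). Values are counts, medians and quartiles (Python 3.11.15, numpy 2.4.6, scipy 1.17.1, matplotlib 3.10.9), and the code was tested on simulated data. Named members, 1 per gene with values in all 4 profiles, were the 10 of highest RPKM, the 4 highest and 4 lowest intronic differences per reagent, and members of 7 gene lists. Members and lists were chosen with earlier results of these data known. The small RNA and HSP groups, the opposite-call group and the comparison of exon nucleotides beside introns were chosen after seeing values.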

Additional observations from a re-analysis of the deposited data

How the results depend on the processing

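No paired analysis was possible because the profiles pool the replicates, and for the same reason no replicate could be left out. A median counted as unchanged when it stayed within the 95% interval of the main median or within 1.5 times of it. Counts and shares were held to 1.5 times alone, splice site windows to 0.02, and shared exon r to the quartiles over members or 1.5 times. Alternatives on another scale (division by the protein-coding mean, shares of nucleotides above a set score) were judged by sign alone, and passed where the interval held 0. Of the values that answer a comparison 265 stayed unchanged, 36 moved and 3 reversed. The cause was not tested for any of them. With the median over nucleotides, intronic minus exonic became 0, -0.0540, -0.0370 and -0.0575 (icSHAPE in vitro and in vivo, icLASER in vitro and in vivo), and the in vivo minus in vitro medians became 0 for both parts and both reagents, as did the icLASER difference between them. Pooling nucleotides gave -0.0688 for icSHAPE in vitro levels and -0.0119 for the icSHAPE intronic minus exonic difference, which was -0.00880 on A and G only and -0.00965 away from splice sites by 30 nt. A and G only gave icLASER -0.0369 intronic, 0.0102 exonic and 40.6% called lower. At an RPKM of at least 20, icLASER gave -0.0430 in vitro (level) and 0.0318 (exonic difference). Calls at 0.1 left 2.68% higher and 2.18% lower with icSHAPE and 2.37% and 6.33% with icLASER. After 5-nt sequence subtraction icSHAPE gave -0.00965 and -0.00139, with 7.78% called higher and 16.2% lower, and division by the protein-coding mean gave -0.0176 for exonic icSHAPE. Ratios to the summed protein-coding RPKM were 0.176, 0.173, 0.190 and 0.184. At 1.5-fold, RPKM calls were 70 higher and 51 lower with icSHAPE and 203 and 93 with icLASER, and 0 and 4 were higher after division by the median ratio. Moving scores 1 nt downstream or upstream gave 0.0945 or 0.173 for the icSHAPE AG difference. Among named members, HSPB1-203 became 0.247 with icSHAPE under its top isoform. Without nucleotides that overlap another gene, differences turned above 0 for EEF1B2-211 (0.137 icSHAPE, 0.0989 icLASER), EIF4A2-223 (0.0969, 0.0726), RPL17-214 (0.0276, 0.1003), RPS2-215 (0.105 icSHAPE), RBMX-210 (0.00160 icSHAPE), RPL13-207 (0.0118 icLASER) and RPS20-209 (0.0335 icLASER). The alternatives that leave out members with small RNAs, require an RPKM of 20 or vary the small RNA settings were chosen after seeing the data. What read depth limits was not tested, since the profiles hold no read counts.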
